A study of Mus musculus with 12 samples.

Results

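Apoptosis through the mitochondrion is controlled by the BCL2 family. Its antiapoptotic proteins hold the effectors in check, the effectors open pores in the outer mitochondrial membrane, and BH3-only proteins carry stress signals that either occupy the antiapoptotic proteins or engage the effectors directly. Cytochrome c that leaves through the pores assembles the apoptosome, which activates caspases. Cardiomyocytes hardly renew themselves, so this balance bears on how many of them a heart keeps.

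The transcripts of 10 family members were examined in whole hearts, of 53700 genes in the count table: the antiapoptotic genes Bcl2, Bcl2l1, Bcl2l2 and Mcl1, the effectors Bax and Bak1, and the BH3-only genes Bid, Bbc3, Pmaip1 and Bcl2l11. The family was selected on the deposited counts themselves, because Bcl2 was higher in these knockout hearts, so the difference between genotypes is described for the members and not tested. All 10 members were among the 17847 genes that passed the filter on low counts.

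RNA was sequenced from 6 ac-WT mice (CYB5R3wt/wt) and 6 ac-CYB5R3-KO mice (CYB5R3fl/fl). All 12 carried Myh6-CreERT2, a Cre recombinase that the Myh6 promoter confines to cardiomyocytes and that tamoxifen switches on. The study used male mice, and all 12 received tamoxifen at 33 mg/kg/d for 5 days from 10 to 13 weeks of age. Hearts were taken 5 days after treatment. The tissue held every cell type of the heart, and Cre was driven in 1 of them. In such bulk RNA, fewer cells of a type and less RNA per cell cannot be told apart.

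Libraries held 43393183 to 53754284 counts on genes. Cyb5r3, the targeted gene, was measured at 81.9 to 185 CPM (read counts relative to library size, scaled by TMM factors) in ac-WT and 42.0 to 67.4 CPM in ac-CYB5R3-KO hearts, which did not overlap (log2 fold change −1.22 ± 0.19 SE, edgeR quasi-likelihood test, adjusted p = 0.0450). Summed over 9 cardiomyocyte markers, the level was 21994 to 50778 CPM in ac-WT and 15987 to 27381 CPM in ac-CYB5R3-KO hearts, so the markers of heart muscle were abundant in all libraries. The libraries of ac-WT mice 2 and 3 stood apart, with TMM factors of 0.570 and 0.723 against 0.988 to 1.22 in the other 10. For the members and the named pathway genes, a log2 fold change that moved by more than 1.5 times without them is also given without them.

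Among the members, Bcl2 stood highest relative to ac-WT, at 1.58-fold. Bbc3 was at 1.30-fold and Bcl2l2 at 1.26-fold, and the other 7 lay between 0.944-fold and 1.20-fold. Bcl2 was the 1 member of 10 whose groups did not overlap, and 1.55% of all genes tested had groups that did not overlap. With an unadjusted p under 0.01 in edgeR, 2 of 10 members (Bcl2 and Bcl2l2, both higher) were past the threshold beside 4.59% of all genes, and 3 of 10 were past an unadjusted p under 0.05 beside 14.6%. With adjusted p-values under 0.05 the count of members was 0 in edgeR (0.101% of all genes), 2 in DESeq2 (2.53%) and 0 in limma-voom (0.0112%). These counts come from the contrast that selected the family and carry no weight of their own.

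**Figure D1:**
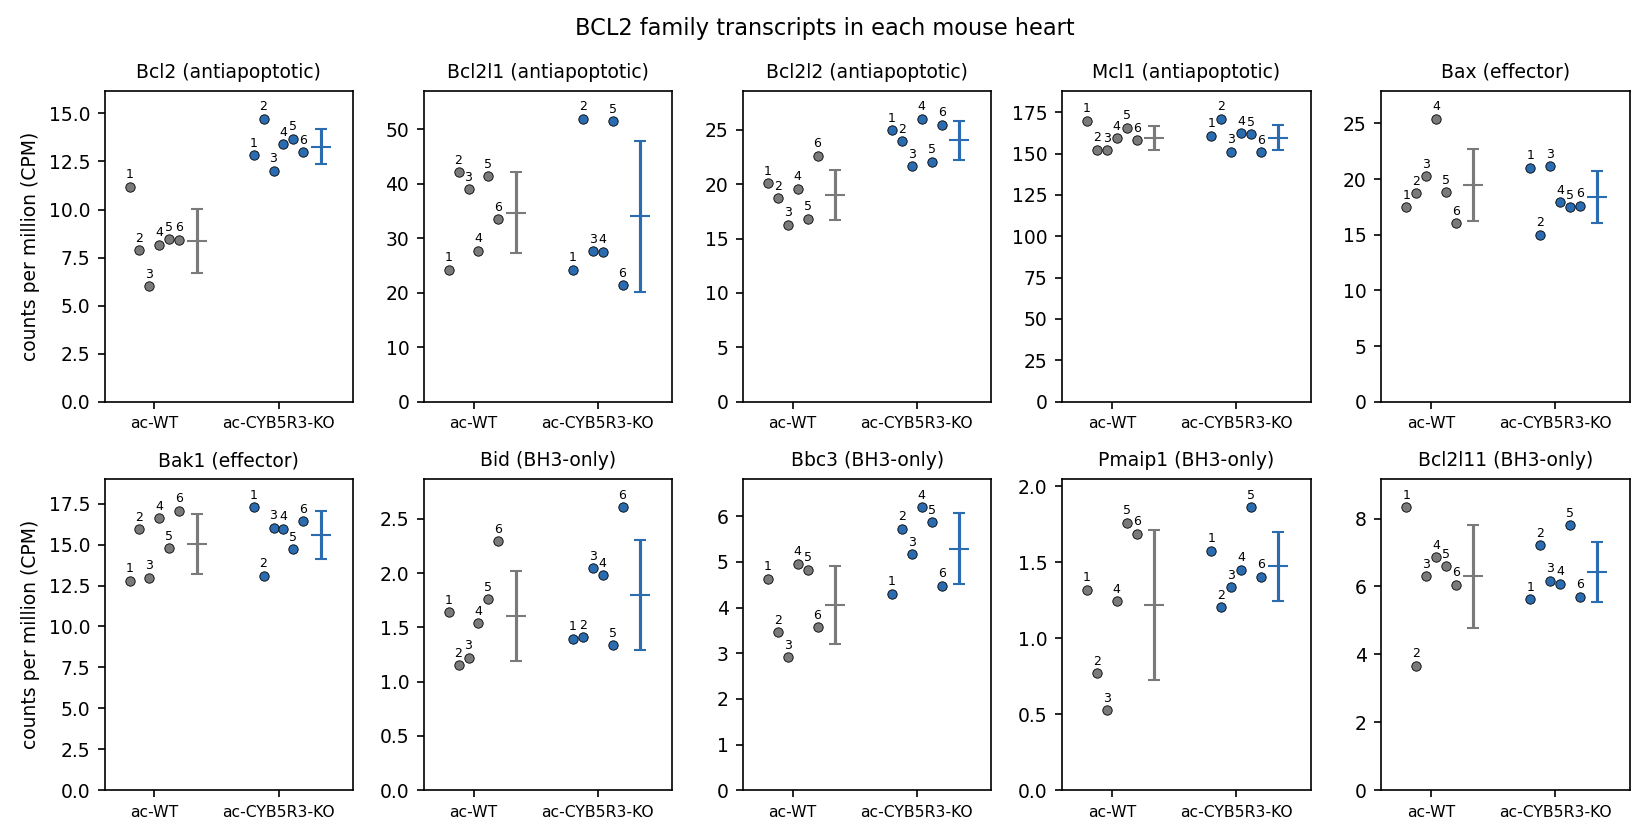
CPM of the 10 members (vertical axis, from 0) in 6 ac-WT (gray) and 6 ac-CYB5R3-KO (blue) mice. Points are mice with their replicate numbers, and bars give the mean and SD. Bcl2 lies at 6.02 to 11.2 CPM in ac-WT and at 12.03 to 14.7 CPM in ac-CYB5R3-KO hearts, while Mcl1 stays between 151 and 171 CPM in both.

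Bcl2 (ENSMUSG00000057329, chr1:108434755-108610851, minus strand, NCBIM37) encodes the founding antiapoptotic protein, which sits in the outer membranes of mitochondria and endoplasmic reticulum. Its level in ac-WT hearts had a minimum of 6.02, a median of 8.31 and a maximum of 11.2 CPM. In ac-CYB5R3-KO hearts these were 12.03, 13.2 and 14.7 CPM. Every knockout heart was above every ac-WT heart, the nearest pair being ac-WT mouse 1 and ac-CYB5R3-KO mouse 3. Group means were 8.37 ± 1.66 and 13.3 ± 0.908 CPM (SD, n = 6 each), with a fitted log2 fold change of 0.66 ± 0.13 (SE). The spread between mice was 19.8% of the mean in ac-WT and 6.84% in ac-CYB5R3-KO hearts. The lowest library held 217 and the highest 856 counts of the gene. Its exons overlap those of D630008O14Rik on the opposite strand, which held at most 1 count in a library. Without ac-WT mice 2 and 3, the log2 fold change was 0.56 ± 0.11. Leaving out each mouse in turn gave 0.60 to 0.77. Scaling to total counts gave 0.90, which is 0.65 above the median gene under that scaling.

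Bcl2l1 encodes BCL-XL, a close relative of BCL2 that heart muscle also expresses. Its gene (ENSMUSG00000007659, chr2:152593052-152657464, minus strand, NCBIM37) was counted as a whole, so its long antiapoptotic and short proapoptotic splice forms were not separated. The minimum, median and maximum were 24.2, 36.2 and 42.1 CPM in ac-WT and 21.4, 27.5 and 51.9 CPM in ac-CYB5R3-KO hearts. The groups overlapped throughout, and the knockout hearts lay apart from each other: mice 2 and 5 held 51.9 and 51.4 CPM, and the other 4 held 21.4 to 27.6 CPM. In ac-WT hearts mice 2 and 5 were also the highest, at 42.1 and 41.3 CPM. The coefficient of variation was 21.5% in ac-WT and 40.8% in ac-CYB5R3-KO hearts. Between groups the log2 fold change was −0.03 ± 0.24 (SE), and over 20 settings it ran from −0.18 to 0.27, with 10 settings above and 10 below 0. Without ac-WT mice 2 and 3 it was 0.12.

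Bcl2l2 (ENSMUSG00000089682, chr14:55502214-55507071, plus strand, NCBIM37) encodes BCL-W, another antiapoptotic relative. Its minimum, median and maximum were 16.3, 19.2 and 22.6 CPM in ac-WT and 21.7, 24.5 and 26.0 CPM in ac-CYB5R3-KO hearts. The groups overlapped by 1 heart, ac-WT mouse 6, which exceeded ac-CYB5R3-KO mice 3 and 5. Its fitted log2 fold change was 0.34 ± 0.10 (SE), and 0.30 without ac-WT mice 2 and 3. Its exons are shared with Gm20521, a gene annotated on the same strand that held 0 counts in every library, and counting programs can leave out or divide reads of shared exons, so its level is uncertain.

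Mcl1 (ENSMUSG00000038612, chr3:95462643-95467099, plus strand, NCBIM37) encodes a short-lived antiapoptotic protein that adult cardiomyocytes depend on. It was the steadiest member, with a minimum, median and maximum of 152, 159 and 169.8 CPM in ac-WT and 151, 161 and 171 CPM in ac-CYB5R3-KO hearts. The group means were 159.5 ± 7.13 and 159.7 ± 7.60 CPM (SD, n = 6 each). The fitted difference was a log2 fold change of 0.00 ± 0.08 (SE), and −0.018 without ac-WT mice 2 and 3. Only 0.134% of all genes tested had a smaller SD of log2 CPM within groups than Mcl1, while the share was 26.6% for Bcl2 and 70.8% for Bcl2l1.

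Bcl2 and Mcl1 deviated together from mouse to mouse. After the group mean was removed from log2(CPM + 1), Pearson's r over the 12 mice was 0.76 (permutation within groups, p = 0.00038, adjusted p = 0.0171 over the 45 pairs of members), and Spearman's rho was 0.83 (permutation p = 0.00262, adjusted p = 0.118). Without the 2 mice farthest from the median of Bcl2, r was 0.85, and without ac-WT mice 2 and 3 it was 0.73. Both genes are scaled by the same library factor, which can move them together, and its part was not tested. Their promoters are shown because this was the 1 pair of 45 past an adjusted p of 0.05. Each is the 250 bases before the transcription start, 5′ to 3′ on the gene's strand, from RefSeq on GRCm38.p6: chr1:106714291-106714540 (minus strand) for Bcl2 and chr3:95658471-95658720 (plus strand) for Mcl1. Capitals mark GC boxes, GGGCGG or CCGCCC on the other strand.
Bcl2: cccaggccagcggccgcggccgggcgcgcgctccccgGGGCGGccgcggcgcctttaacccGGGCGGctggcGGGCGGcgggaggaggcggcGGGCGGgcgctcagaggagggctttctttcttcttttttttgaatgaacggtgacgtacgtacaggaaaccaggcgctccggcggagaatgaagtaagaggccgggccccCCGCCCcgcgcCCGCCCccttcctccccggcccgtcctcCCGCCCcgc
Mcl1: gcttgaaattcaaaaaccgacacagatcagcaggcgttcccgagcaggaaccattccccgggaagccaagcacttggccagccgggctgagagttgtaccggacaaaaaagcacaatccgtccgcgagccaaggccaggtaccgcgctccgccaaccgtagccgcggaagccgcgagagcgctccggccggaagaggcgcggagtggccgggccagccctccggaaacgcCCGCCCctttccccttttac
The Bcl2 stretch held 7 GC boxes and 74.8% G and C bases. The Mcl1 stretch held 1 GC box and 64.4% G and C bases. Of 32851 promoters of this length, 32.7% held a GC box. Of the 14 starts of the 9 members with an entry 10 did, from 7 members. The letters CCAAT or ATTGG and the letters GTAAACA or TGTTTAC were found before starts of Bbc3 and Bcl2l11. They were before 3 and 2 of the 14 starts and before 33.8% and 3.17% of all starts. The letters TATAAA or TTTATA and the palindrome TGACGTCA were in none of the 14 windows and in 12.4% and 1.55% of all. Matches of letters are descriptions and do not show binding.

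Per exon length, the 4 antiapoptotic transcripts were dominated by Mcl1. On the scale of CPM per kilobase of exon (RPKM, from exon lengths of the NCBIM37 annotation, which may differ from the one used for counting), Mcl1 stood at 45.8 ± 2.04 in ac-WT and 45.8 ± 2.18 in ac-CYB5R3-KO hearts (SD, n = 6 each). Bcl2 stood at 1.16 ± 0.231 and 1.85 ± 0.126 RPKM. Mcl1 thus made up 78.2% ± 2.12 of the summed antiapoptotic RPKM in ac-WT and 76.2% ± 2.88 in ac-CYB5R3-KO hearts. The share of Bcl2 was 1.49% to 2.60% in ac-WT and 2.97% to 3.26% in ac-CYB5R3-KO hearts, without overlap. Within a library, the count of Bcl2 was 0.0396 to 0.0659 of the Mcl1 count in ac-WT and 0.0795 to 0.0861 in ac-CYB5R3-KO hearts, again without overlap. This ratio does not depend on any scaling between libraries. The family was selected on Bcl2, and Mcl1 was level between groups, so the share and the ratio restate that contrast.

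**Figure D2:**
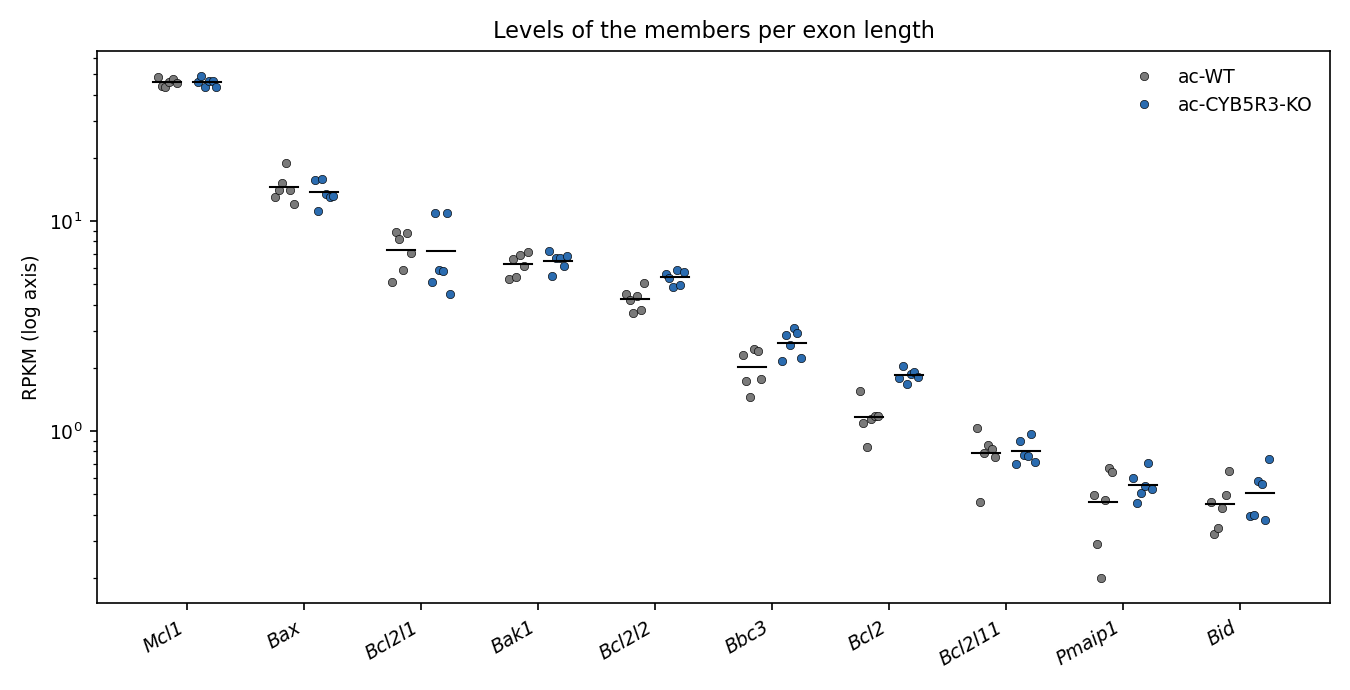
RPKM of the 10 members on a log axis, ordered by the ac-WT mean. Points are mice (ac-WT gray, ac-CYB5R3-KO blue) and lines are group means. The order runs from Mcl1 at 45.8 RPKM down to Pmaip1 and Bid, at 0.460 and 0.451 RPKM in ac-WT hearts.

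In both groups the order by mean RPKM was Mcl1, Bax, Bcl2l1, Bak1, Bcl2l2, Bbc3, Bcl2, Bcl2l11, Pmaip1 and Bid. Bcl2, in spite of its difference between genotypes, ranked 7 in both. Neighbours in this order kept it in 6 of 6 mice of each group except for 2 pairs. Bcl2l1 was above Bak1 in 3 of 6 ac-WT and 2 of 6 ac-CYB5R3-KO mice, and Pmaip1 was above Bid in 3 of 6 mice of each group, so these neighbours did not differ beyond their spread.

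**Figure D3:**
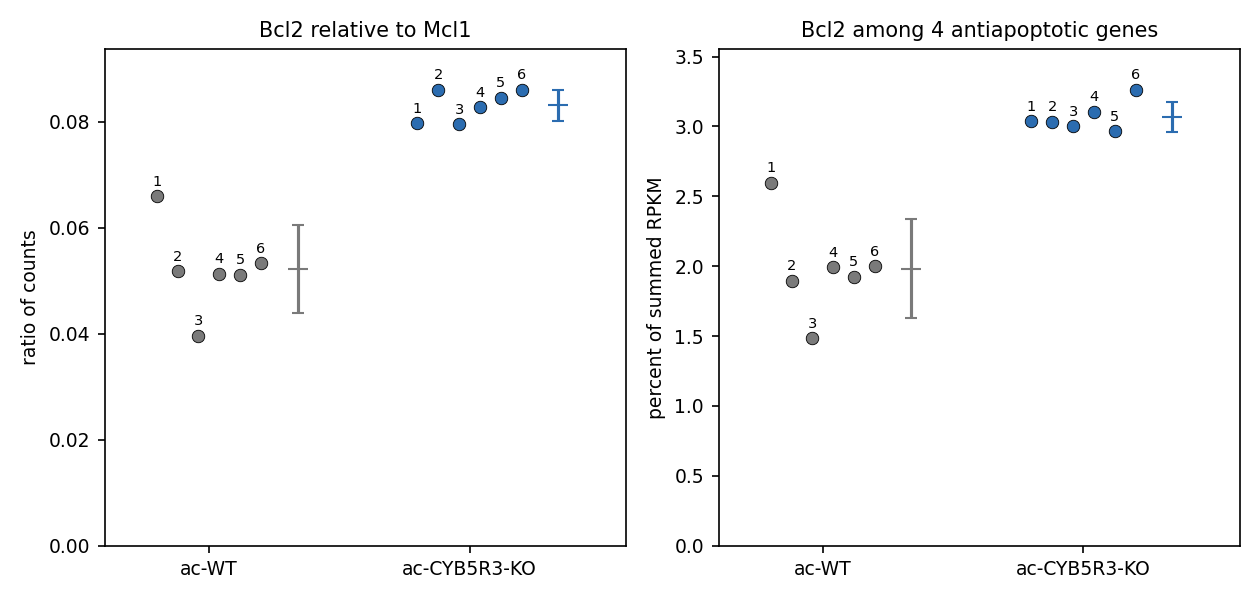
Left, the count of Bcl2 over the count of Mcl1 in each library; right, Bcl2 as a percent of the summed RPKM of Bcl2, Bcl2l1, Bcl2l2 and Mcl1. Points are mice with their replicate numbers, bars are mean and SD, and both axes start at 0. The highest ac-WT heart (0.0659 and 2.60%) is below the lowest ac-CYB5R3-KO heart (0.0795 and 2.97%). Both measures restate the contrast in Bcl2 that selected the family.

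Bax and Bak1 encode the effectors, which form the pores once activated. Bax (ENSMUSG00000003873, chr7:52717065-52722268, minus strand, NCBIM37) had a minimum, median and maximum of 16.1, 18.8 and 25.4 CPM in ac-WT and 15.0, 17.8 and 21.1 CPM in ac-CYB5R3-KO hearts. The ranges lay almost on each other, and ac-WT mouse 4 was the highest. The log2 fold change was −0.08 ± 0.12 (SE), which became 0.18 with total counts and −0.07 when set against the median gene under that scaling. It was 0.0077 without ac-WT mouse 4 and −0.030 without ac-CYB5R3-KO mouse 2. Bak1 (ENSMUSG00000057789, chr17:27156755-27165954, minus strand, NCBIM37) had 12.8, 15.4 and 17.1 CPM in ac-WT and 13.1, 16.0 and 17.3 CPM in ac-CYB5R3-KO hearts, with a log2 fold change of 0.05 ± 0.10 (SE). Both groups again covered the same range. Leaving out each mouse in turn gave 0.011 to 0.10 for Bak1. Exons of Bak1 overlap those of Ggnbp1 on the opposite strand, which held 3.09 to 10.6 CPM in ac-WT and 2.50 to 4.94 CPM in ac-CYB5R3-KO hearts. The strand setting of the counting is not given in the sources used here.

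The level of Bcl2 relative to the effectors was less separated than its own level. The count of Bcl2 was 0.297 to 0.641 of the Bax count in ac-WT and 0.569 to 0.981 in ac-CYB5R3-KO hearts. Relative to Bak1 it was 0.464 to 0.875 and 0.742 to 1.12. In both ratios ac-WT mouse 1 reached into the range of the knockout hearts. The summed RPKM of the 4 antiapoptotic genes over that of the 2 effectors was 2.85 ± 0.369 in ac-WT and 3.03 ± 0.587 in ac-CYB5R3-KO hearts (SD, n = 6 each), a difference smaller than the spread between mice.

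The BH3-only members were low. Bbc3 (ENSMUSG00000002083, chr7:16894965-16903554, plus strand, NCBIM37) encodes PUMA, a target of p53, and was the highest of them per length, at 2.02 ± 0.426 RPKM in ac-WT hearts. Its minimum, median and maximum were 2.91, 4.10 and 4.96 CPM in ac-WT and 4.31, 5.45 and 6.20 CPM in ac-CYB5R3-KO hearts. The ranges overlapped, with ac-WT mice 1, 4 and 5 inside the range of the knockout hearts. The log2 fold change was 0.38 ± 0.16 (SE), and 0.25 without ac-WT mice 2 and 3. The Bcl2 count per Bbc3 count overlapped between groups, at 1.65 to 2.41 in ac-WT and 2.16 to 2.98 in ac-CYB5R3-KO hearts.

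Pmaip1 (ENSMUSG00000024521) encodes NOXA, which binds MCL1 with preference. It had 0.527, 1.28 and 1.76 CPM in ac-WT and 1.20, 1.43 and 1.86 CPM in ac-CYB5R3-KO hearts, from 19 to 99 counts per library. The 2 lowest hearts were ac-WT mice 2 and 3, the libraries that stood apart, and the other 4 ac-WT hearts lay at 1.24 to 1.76 CPM. The log2 fold change was 0.26 ± 0.26 (SE), and −0.02 without these 2 mice.

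Bid encodes the link from death receptors to the mitochondrion, cleaved by caspase 8. Its gene (ENSMUSG00000004446, chr6:120841948-120866871, minus strand, NCBIM37) had 1.15, 1.59 and 2.29 CPM in ac-WT and 1.33, 1.70 and 2.61 CPM in ac-CYB5R3-KO hearts, overlapping throughout, with a log2 fold change of 0.16 ± 0.22 (SE). This was 0.0016 without ac-WT mice 2 and 3 and 0.023 without ac-CYB5R3-KO mouse 6. Its exons overlap those of Bcl2l13 on the opposite strand, which held 17.7 to 29.8 CPM over all mice, more than Bid by far. Where strand was not used, reads of these genes could not be told apart, so the value of Bid is uncertain.

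Bcl2l11 (ENSMUSG00000027381, chr2:127951774-127988283, plus strand, NCBIM37) encodes BIM, which binds all antiapoptotic members and is a target of FOXO factors. It had 3.67, 6.44 and 8.33 CPM in ac-WT and 5.62, 6.13 and 7.80 CPM in ac-CYB5R3-KO hearts. The knockout range lay inside that of ac-WT, where mouse 2 was the lowest and mouse 1 the highest. Between groups the log2 fold change was 0.03 ± 0.16 (SE), and −0.099 without ac-WT mice 2 and 3.

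**Figure D4:**
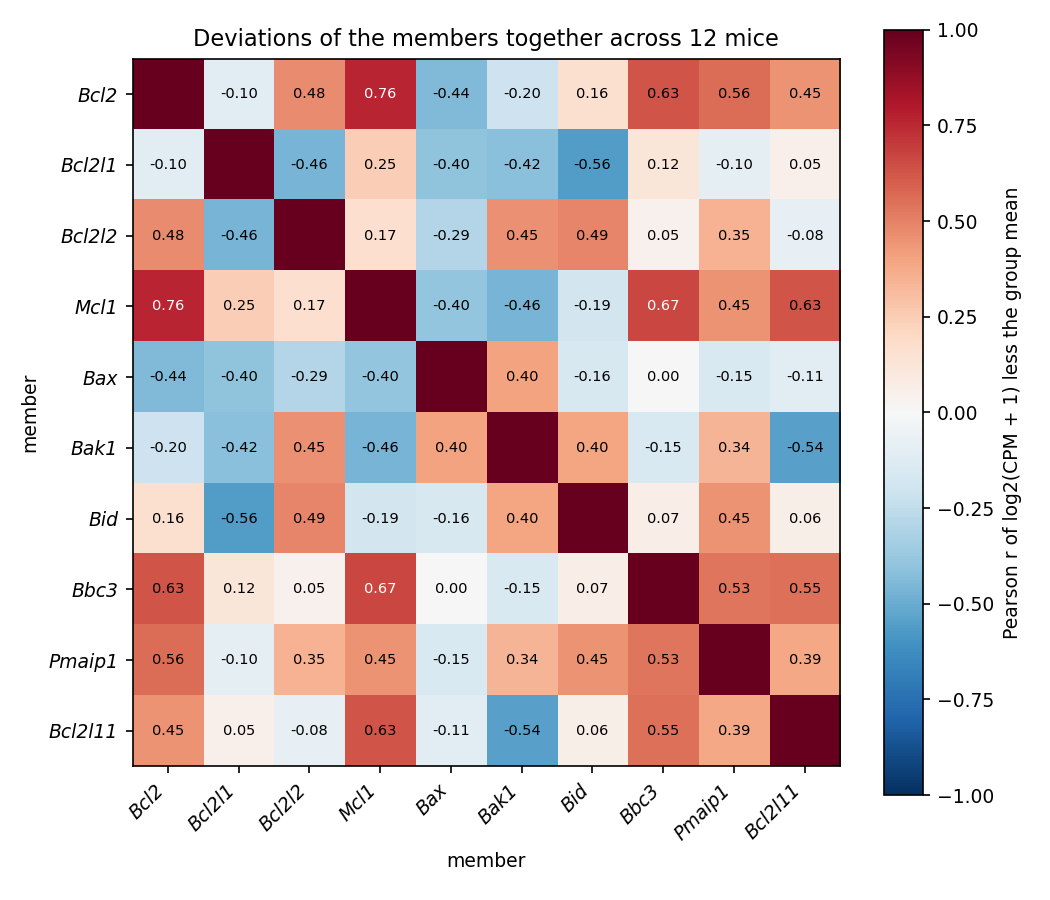
Pearson's r between members over 12 mice, from log2(CPM + 1) less the group mean, on a color scale from −1 (blue) to 1 (red). Values run from −0.56 (Bcl2l1 with Bid) to 0.76 (Bcl2 with Mcl1).

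Of the 45 pairs of members, 27 had an r above 0 and 4 a permutation p under 0.05. Besides Bcl2 with Mcl1 these were Mcl1 with Bbc3 (r = 0.67), Mcl1 with Bcl2l11 (r = 0.63) and Bcl2 with Bbc3 (r = 0.63), with permutation p-values of 0.0278, 0.0247 and 0.0444 and adjusted p-values of 0.417, 0.417 and 0.474. Without ac-WT mice 2 and 3 the r of Bcl2 with Bbc3 was 0.27. Bcl2l1 had a negative r with 6 of the other 9 members, the lowest being those with Bid (−0.56) and Bcl2l2 (−0.46), neither past an adjusted p of 0.05. The 5 genes closest to Bcl2 within groups were Gm5518 (r = 0.89), Hmgb1-ps6 (0.89), Fbxl14 (0.88), Zfp423 (0.87) and Pard6g (0.86), taken from all 17847 genes tested over 12 mice. Their fitted log2 fold changes lay between −0.02 and 0.31, below that of Bcl2.

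Markers of other cell types moved beside some members. In the list of T cell and thymus genes, 3 of 6 tested (Cd3d, Cd3g and Cd8a) were higher in knockout hearts with an unadjusted p under 0.01 (1.33% of all genes were higher at that threshold), and the summed level of the list of 8 was 1.19 to 3.89 CPM in ac-WT and 3.75 to 6.30 CPM in ac-CYB5R3-KO hearts. Of the genes that define developing thymocytes in this list, Rag1 was at 0 to 0.0205 CPM and Dntt at 0 to 0.986 CPM. Lymphocytes express Bcl2. Within groups, Bcl2 followed the summed list with an r of 0.66 over 12 mice and of 0.03 without ac-WT mice 2 and 3. The r of Bcl2 was 0.58 with the fibroblast list, 0.56 with the cartilage and airway list and −0.30 with the cardiomyocyte list. Without these mice they were −0.15, −0.12 and 0.56. The part of T cells in the level of Bcl2 was not tested.

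In the B cell list 1 of 5 tested (Jchain) was higher with an unadjusted p under 0.01, at 0.132 to 0.871 CPM in ac-WT and 1.24 to 4.40 CPM in ac-CYB5R3-KO hearts, and the sum was 9.79 to 20.0 CPM and 12.7 to 20.3 CPM. In the cardiomyocyte list 3 of 9 (Tnni3, Myl2 and Myl3) were lower, and ac-WT mice 2 and 3 held the highest sums. Actc1 (0.08) and Ryr2 (0.04) of that list had positive log2 fold changes. In the smooth muscle and pericyte list 2 of 6 (Acta2 and Myh11) were lower. Tagln (0.18) and Pdgfrb (0.21) of that list had positive log2 fold changes. Myh11 was at 34.4 and 33.9 CPM in ac-WT mice 2 and 3 and at 11.2 to 16.4 CPM in other ac-WT hearts. In the cartilage and airway list 2 of 3 tested (Col2a1 and Comp) were higher. The summed fibroblast level was 922 to 3712 CPM in ac-WT and 2224 to 3413 CPM in ac-CYB5R3-KO hearts. Pmaip1 followed it with an r of 0.89, or 0.50 without ac-WT mice 2 and 3. The r of Pmaip1 was 0.90 with the T cell and thymus list and 0.79 with the macrophage list. Without these mice they were 0.64 and 0.30. Bbc3 followed the B cell list with an r of 0.87, or 0.85 without these mice. These counts use an unadjusted p under 0.01 (3.27% of all genes were lower at that threshold), and the part of these cell types in the members' values was not tested. The red blood cell list summed to 343 to 6706 CPM in ac-WT and 2035 to 19786 CPM in ac-CYB5R3-KO hearts, with a median log2 fold change of 1.61 and an unadjusted p under 0.01 in 0 of 5 genes tested. Within groups the r of Bcl2 with this sum was −0.18, or 0.033 without ac-WT mice 2 and 3, and its part in the members' values was not tested.

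The rest of the death pathways was followed with 66 genes in 5 lists, of which 64 were matched to the count table and 59 tested. Bcl2l10, Hrk, Bcl2l15, Fasl and Trp73 did not pass the filter, and Bcl2a1a and Bcl2a1d were not matched. With an unadjusted p under 0.01 in edgeR, 2 genes were higher and 1 was lower, which is 5.08% of the 59 beside 4.59% of all genes. With adjusted p-values under 0.05 the count was 0 in edgeR and in limma-voom and 3 in DESeq2 (2.53% of all genes), and 6 of 59 had an unadjusted p under 0.05 in edgeR beside 14.6% of all genes. These shares are near or below those of all genes, except for the DESeq2 count, which is 5.08% of the 59. Of the 59, 28 had a positive and 31 a negative fitted log2 fold change, with a median of −0.01 beside −0.01 over all genes tested. With total counts 51 of the 59 were positive, and the median was 0.24 beside 0.26 over all genes. The count at p under 0.01 was 0 without ac-WT mice 2 and 3, 0 without ac-CYB5R3-KO mouse 2 and 1 without ac-CYB5R3-KO mouse 6.

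**Figure D5:**
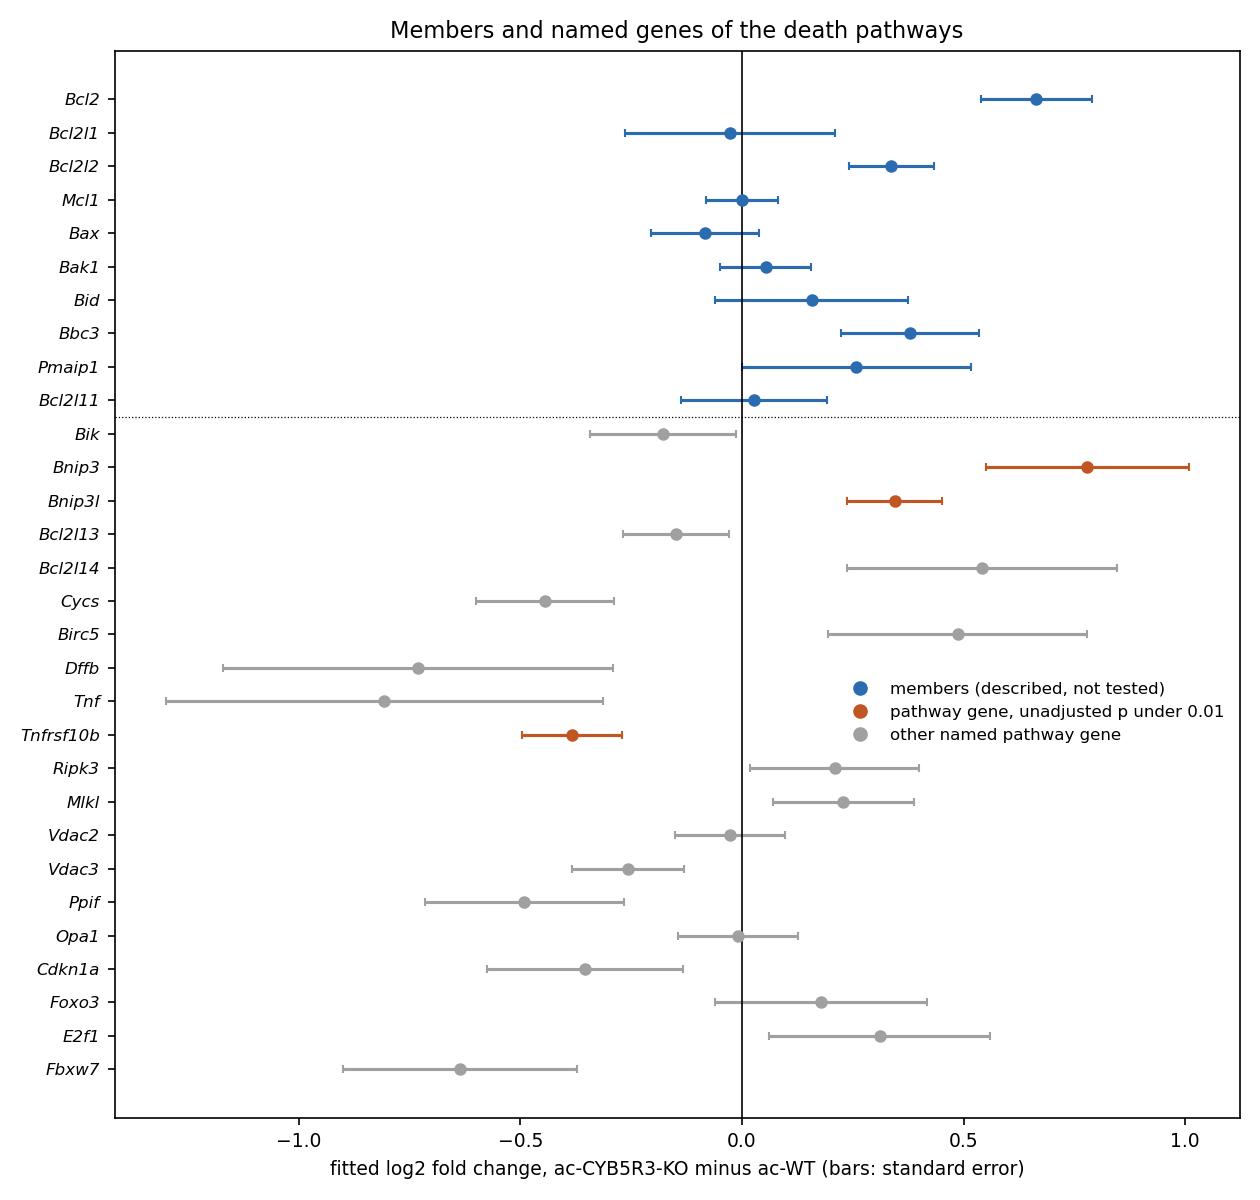
Fitted log2 fold changes (horizontal axis, ac-CYB5R3-KO minus ac-WT) with standard errors for the 10 members above the dotted line (blue) and 20 named pathway genes below it. Orange marks the 3 with an unadjusted p under 0.01, Bnip3 at 0.78, Bnip3l at 0.34 and Tnfrsf10b at −0.38.

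Both genes that were higher belong to the wider BCL2 family. Bnip3 and Bnip3l encode BH3-like proteins of the outer mitochondrial membrane that recruit the autophagy machinery and are induced by hypoxia. Bnip3 was at 18.1 to 49.4 CPM (median 31.8) in ac-WT and 43.5 to 79.6 CPM (median 51.3) in ac-CYB5R3-KO hearts, with a log2 fold change of 0.78 ± 0.23 (SE) and an adjusted p of 0.188 in edgeR. Bnip3l was at 38.8 to 57.2 CPM (median 51.7) and 55.0 to 71.4 CPM (median 62.9), with a log2 fold change of 0.34 ± 0.11 (SE) and an adjusted p of 0.197. The groups overlapped for both. Of the 10 tested genes in this list, 7 had a positive log2 fold change (10 with total counts), and the largest value without p under 0.01 was that of Bcl2l14 (0.54 ± 0.30), at 0.211 CPM on average in ac-WT hearts. Bik (−0.18 ± 0.16) and Bcl2l13 (−0.15 ± 0.12) had the lowest values, which were −0.0098 and −0.054 without ac-WT mice 2 and 3.

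Among the death receptor genes, Tnfrsf10b, the mouse receptor for TRAIL, was lower. It was at 5.35 to 6.67 CPM in ac-WT and 3.70 to 5.24 CPM in ac-CYB5R3-KO hearts, without overlap, with a log2 fold change of −0.38 ± 0.11 (SE) and an adjusted p of 0.188 in edgeR. It was the 1 pathway gene of 59 whose groups did not overlap, beside 1.55% of all genes. With total counts its log2 fold change was −0.10 ± 0.18 (adjusted p = 0.732 in edgeR), or −0.36 relative to the median gene under that scaling. Of 12 tested genes in this list, 6 were positive and 6 negative (9 positive with total counts). Ripk3 and Mlkl, which carry out necroptosis, had log2 fold changes of 0.21 ± 0.19 and 0.23 ± 0.16. Without ac-WT mice 2 and 3 that of Mlkl was 0.069, and without ac-CYB5R3-KO mouse 3 that of Ripk3 was 0.075. Tnf, a ligand of these receptors, had −0.81 ± 0.49. Its level split the ac-WT hearts, with mice 1 to 3 at 0.722 to 1.05 CPM and mice 4 to 6 at 0.152 to 0.187 CPM, on either side of all knockout hearts (0.244 to 0.407 CPM). Without ac-WT mouse 1 its log2 fold change was −0.49, without ac-WT mouse 2 it was −0.53, and without ac-WT mice 2 and 3 it was −0.32.

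Downstream of the pores, none of 18 tested genes for the apoptosome, caspases and their inhibitors had an unadjusted p under 0.01 in edgeR, and 1 had an unadjusted p under 0.05. That gene was Cycs, which encodes cytochrome c, at 551 to 949 CPM in ac-WT and 392 to 603 CPM in ac-CYB5R3-KO hearts (log2 fold change −0.44 ± 0.16 SE, adjusted p = 0.232 in edgeR). Cycs also serves the respiratory chain, and its value was −0.26 without ac-WT mice 2 and 3. The survivin gene Birc5 had 0.49 ± 0.29 (0.27 without these mice), and Dffb, which encodes the nuclease that cuts DNA in apoptosis, had −0.73 ± 0.44, with ac-WT mouse 3 far above the other hearts at 13.2 CPM. Without that mouse the log2 fold change of Dffb was −0.29, and without ac-WT mice 2 and 3 it was −0.16.

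All 7 genes for partners at the outer membrane and cristae had a negative log2 fold change with TMM scaling, from −0.49 to −0.01, and 0 of 7 had an unadjusted p under 0.01, 1 an unadjusted p under 0.05, and 0 an adjusted p under 0.05 in edgeR, DESeq2 or limma-voom. With total counts 6 of the 7 were positive, at a median of 0.20 beside 0.26 over all genes tested. Ppif, the gene of cyclophilin D, a regulator of the permeability transition, was at 55.6 to 148 CPM in ac-WT and 45.9 to 77.5 CPM in ac-CYB5R3-KO hearts (−0.49 ± 0.22), the highest being ac-WT mouse 2. Without that mouse it had −0.23, and without ac-WT mice 2 and 3 −0.12. The voltage-dependent channel gene Vdac3 had −0.26 ± 0.13, which was −0.14 without ac-WT mouse 2 and −0.095 without ac-WT mice 2 and 3. Vdac2, which holds BAK at the outer membrane, had −0.03 ± 0.12, and Opa1, which shapes the cristae, had −0.01 ± 0.14. Without ac-WT mice 2 and 3 these were 0.024 and 0.12.

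Among regulators of member transcription and of MCL1 turnover, 0 of 12 tested had an unadjusted p under 0.01 and 1 an unadjusted p under 0.05 in edgeR, and 0 had an adjusted p under 0.05 in edgeR, DESeq2 or limma-voom. The 1 was Fbxw7, part of a ubiquitin ligase that acts on MCL1, at 16.8 to 55.6 CPM in ac-WT and 18.6 to 22.5 CPM in ac-CYB5R3-KO hearts (−0.64 ± 0.26, adjusted p = 0.288 in edgeR). The highest ac-WT hearts were mice 2 and 3, at 55.6 and 43.1 CPM. Mouse 1 was at 31.7 CPM, also above all knockout hearts, and mice 4 to 6 were at 16.8 to 19.2 CPM. Without mouse 2 the log2 fold change was −0.37, and without mice 2 and 3 it was −0.11 ± 0.16. Cdkn1a, a target of p53 as Bbc3 is, had −0.35 ± 0.22, and −0.20 without ac-WT mice 2 and 3. Foxo3 had 0.18 ± 0.24 and E2f1 0.31 ± 0.25, both within 2 standard errors of 0, and E2f1 was at 0.11 without these mice.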

How the data were processed

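Stranded total RNA libraries from 12 hearts were sequenced as 75 bp unpaired reads. The authors deposited unnormalized, unfiltered read counts of 53700 Ensembl genes. The submitters' processing notes list STAR, featureCounts and GRCm39, while the methods of the study name STAR with mm9 and Cufflinks values that are not the deposited ones. The build, annotation and strand setting of these counts are therefore not settled, and gene positions are given on NCBIM37 (mm9) by Ensembl identifier.

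Each column was assigned to its mouse by label, and 0 columns were left unused. Symbols were found for 57.8% of identifiers. Counts were filtered by filterByExpr (minimum count 10), scaled by TMM and compared in edgeR 4.0.16 (R 4.3.3) by its two-sided quasi-likelihood test, with Benjamini-Hochberg adjustment over 17847 genes. Correlations between members used 100000 two-sided permutations within groups. Levels between genes are RPKM over merged exons. The biological coefficient of variation was 26.5%, and hearts of the same group correlated at 0.948 to 0.993. Counts without molecular identifiers are not independent molecules.

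The members, the gene lists and the rule for named genes were chosen with earlier results of these data known. Named were all members, pathway genes with an adjusted p under 0.05 or an unadjusted p under 0.01, the 2 highest and the 2 lowest log2 fold changes of each pathway list, the 5 genes closest to Bcl2, and Cyb5r3. A pathway gene that this rule names is not reported here. Marker genes, genes that overlap a member and genes outside the filter were named after their values were seen. Of the other marker lists (endothelial, macrophage, neutrophil, red blood cell), none held a gene with an unadjusted p under 0.01 in edgeR, and 0 of 4 adipocyte genes passed the filter. The results were recomputed with limma-voom from limma 3.58.1, with DESeq2 1.42.0 and its size factors in edgeR, with library totals as scaling, other filters, a replicate block, dropping ac-WT mice 2 and 3, and leaving out each mouse. By label the replicates are separate mice, 6 per group.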

Additional observations from a re-analysis of the deposited data

Results flagged for a closer look

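Among 60 groups of 6 hearts examined for the members and the named pathway genes, 4 held a heart whose gap to the next, as a share of the group's range, exceeded the 95% critical value of Dixon's test, and chance flags about 1 in 20 groups. All 4 were ac-WT hearts, and none was a value of a member. Bcl2l13, an outer membrane protein of the wider family, stood at 29.8 CPM in ac-WT mouse 2 and at 19.8 to 22.9 CPM in the other 5. Dffb stood at 13.2 CPM in ac-WT mouse 3 and at 1.97 to 5.89 CPM in the others. Ripk3 stood at 5.54 CPM in ac-WT mouse 1 and at 3.30 to 3.90 CPM in the others. Ppif stood at 148 CPM in ac-WT mouse 2 and at 55.6 to 89.1 CPM in the others.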

How the results depend on the processing

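The log2 fold change of Bcl2 stayed above 0 in 20 of 20 settings (0.56 to 0.90), as did those of Bcl2l2 (0.30 to 0.58) and Bbc3 (0.25 to 0.60). Those of Bak1 (0.011 to 0.31) and Bid (0.0016 to 0.37) did too, but their reported values lie within 1 standard error of 0. The settings reuse the same hearts and are not independent. Bcl2 (0.90), Bcl2l2 (0.58), Mcl1 (0.25), Bax (0.18) and Bak1 (0.31) moved by more than the spread between mice under total counts, and no member did under another setting. With total counts the median log2 fold change over all genes was 0.26 in place of −0.01, and all members were positive. Relative to it, Bcl2 was at 0.65, Bcl2l2 at 0.33, Bbc3 at 0.35, Mcl1 at −0.00 and Bax at −0.07. Genes with an adjusted p under 0.05 numbered 18 in the reported fit, 451 with DESeq2, 2 with limma-voom, 8 with total counts, 8 with DESeq2 size factors, 35 with no filter, 7 without ac-WT mice 2 and 3, and 2 to 38 when each mouse was left out. Genes with an unadjusted p under 0.01 numbered 820, 1238 with DESeq2, 426 with total counts, 426 without ac-WT mice 2 and 3, and 463 to 1169 when each mouse was left out. The share of them lower in ac-CYB5R3-KO hearts went to 33.1% with total counts, beside 70.1% with DESeq2 size factors. Pathway genes past that threshold numbered 3, 1 with total counts, 0 without ac-WT mice 2 and 3, and 0 to 4 when each mouse was left out.

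With total counts the sign turned for Bik (0.13), Bcl2l13 (0.14), Vdac3 (0.049), Vdac2 (0.24) and Opa1 (0.29), where the median of all genes moved up as given above. Relative to that median Bik was at −0.13, Bcl2l13 at −0.11, Vdac3 at −0.21 and Vdac2 at −0.017, on the side of their reported values, and Opa1 was at 0.034. Without ac-WT mice 2 and 3 it turned for Vdac2 (0.024) and Opa1 (0.12), and with no filter for Opa1 (0.019). When each mouse was left out, Vdac2 ran from −0.095 to 0.035, Opa1 from −0.071 to 0.098 and Foxo3 from −0.026 to 0.29, and their signs turned in 3, 4 and 1 of these fits. None of these had an adjusted p under 0.05, and for the fits other than total counts the cause was not tested.

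Mice with the same replicate number are different animals. The deviations of the 6 same-number pairs correlated at −0.16 to 0.36, over 0.1 in 4 of 6, and 3 of 6 ac-WT mice correlated best with their own number, a hint from the data and not from the design. With the replicate block, 2 genes had an adjusted p under 0.05, 672 an unadjusted p under 0.01, and 1 pathway gene was past that threshold, while the log2 fold change of Bcl2 was 0.68.

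The spread between mice limits the steady members least and Bcl2l1, Bid and Pmaip1 most, whose standard errors of 0.22 to 0.26 put differences of that size within their error. Splice forms, proteins and cell types were not measured here.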

Other observations

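The level of Bcl2l1 differed from heart to heart more than that of the other abundant members, and genes that followed it were read out after its values were seen. Over 12 mice, after group means were removed from log2(CPM + 1), the 5 closest of the genes tested were Slc10a6 (r = 0.96), Slc25a33 (0.93), Fam107a (0.92), Mt1 (0.92) and Herpud1 (0.92). Mt1, a metallothionein, held 139 to 293 CPM in ac-WT and 102 to 236 CPM in ac-CYB5R3-KO hearts. Herpud1, a gene of the endoplasmic reticulum stress response, held 49.3 to 103 CPM and 39.3 to 118 CPM. These hearts share library scaling, and closeness over 12 mice chosen from so many genes is a description.

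A list of 10 genes known to be induced by glucocorticoids was then written (Fkbp5, Per1, Tsc22d3, Zbtb16, Sgk1, Dusp1, Mt2, Cebpd, Errfi1 and Ddit4), with these results in view. All 10 had a positive r with Bcl2l1, from 0.31 (Sgk1) to 0.83 (Tsc22d3), with a median of 0.56 beside −0.01 over all genes tested. With Bcl2 the same genes had a median r of 0.04, and 5 of 10 were positive. Their log2 fold changes ran from −1.02 (Dusp1) to 0.064 (Cebpd), beside −0.03 for Bcl2l1. As the list was chosen with these data in view, these values are a description and carry no weight of their own. The mean log2(CPM + 1) of the list was 6.02 and 5.74 in ac-CYB5R3-KO mice 5 and 2, where Bcl2l1 was at 51.4 and 51.9 CPM, and 4.62 in ac-CYB5R3-KO mouse 6, where it was lowest at 21.4 CPM. In ac-CYB5R3-KO mice 1, 3 and 4 it was 5.17, 5.24 and 4.91, with Bcl2l1 at 24.2, 27.6 and 27.5 CPM. In ac-WT mice 1 to 6 the list mean was 5.53, 5.63, 5.84, 5.35, 5.94 and 5.75. There Bcl2l1 was at 24.2, 42.1, 38.9, 27.7, 41.3 and 33.5 CPM, so its order was not that of the list. The time of day and the handling of the mice at collection are not given in the labels, and no cause was tested.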
